A study of Mus musculus with 6 samples.

Results

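The genes described here carry out or restrain 3 forms of programmed cell death, namely apoptosis, necroptosis and pyroptosis. They were chosen by name, 34 of the 57180 genes in the deposited expression table, and each of the 34 names matched 1 line of the table. They comprise 5 death receptors and adaptors, 3 necroptosis genes, 5 inflammatory caspases and gasdermins, 7 genes of the apoptotic caspases and their platforms, 12 members of the BCL2 family, and the caspase inhibitor *Xiap* with its antagonist *Diablo*. Primary hepatocytes were isolated from the livers of male mice with collagenase, kept in medium with dexamethasone and serum, and exposed for 24 h to 0.1 mM palmitate, which both groups received. The LOXP libraries (n = 3) came from mice with a floxed STING allele, and the KO libraries (n = 3) from liver-specific STING knockout mice, which carry the floxed allele and Albumin-Cre, a Cre driven by a promoter active in hepatocytes. The mice were of C57BL/6 background and 8 to 10 weeks of age. Whether each library came from a separate mouse or culture is not given in the sources used here, so p-values measure the spread between these libraries, which may be technical. No library without palmitate was analysed here, so the values compare genotypes within palmitate treatment.

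In apoptosis, ligands such as FAS ligand and TNF bind death receptors, whose adaptors recruit caspase-8, while internal stress acts through the BCL2 family at the mitochondrion. BH3-only proteins release BAX and BAK from their anti-apoptotic relatives BCL-XL, BCL2 and MCL1, and the cytochrome c that then leaves the mitochondrion activates caspase-9 on APAF1. In necroptosis RIPK1 and RIPK3 activate MLKL, which breaches the plasma membrane when caspase-8 is inactive. In pyroptosis inflammatory caspases cleave gasdermin D, whose fragment forms membrane pores. Hepatocytes are known for needing the mitochondrial arm, through BID, when FAS kills them, and for depending on BCL-XL and MCL1 for survival. Death of fat-laden hepatocytes is a feature of steatohepatitis.

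Counted reads per library ran from 14726983 to 18536985, and the first principal component, with 53.6% of the variance, separated the groups. *Sting1*, the targeted gene, had 19, 16 and 23 counts in LOXP replicates 1, 2 and 3 and 24, 23 and 15 in KO, so the counts did not show a lower level in KO (log2 fold change -0.08 ± 0.298, where ± gives the standard error, SE, and adjusted p = 0.883 by the quasi-likelihood test of edgeR, which also gave the values below). Which exons were deleted is not given in the sources used here, and exons left in place can still yield reads. The paper reports that RT-PCR detected *Sting1* RNA in purified hepatocytes and that the knockout cells had lost it. KO and LOXP below mean the libraries that carry these labels. As a check of the cell type, 6 hepatocyte markers summed to between 8506 and 10203 FPKM (fragments scaled to the length of the gene and the size of the library), 16 macrophage and Kupffer cell markers to between 92.0 and 119.7, and 8 endothelial markers to between 26.2 and 30.1. The 9 lymphocyte markers had 0 counts in all 6 libraries, and a 0 still allows an expected count of up to 3. The 6 neutrophil markers had 49 counts in total. Some lists differed between the groups without overlap. The hepatocyte sum ran from 8506 to 8623 in KO and from 9826 to 10203 in LOXP, and the cholangiocyte sum from 61.8 to 72.7 in KO and from 119.1 to 140.2 in LOXP. The cholangiocyte sum was mostly *Cldn4* (111 FPKM in LOXP and 55.8 in KO on average). Of the 4 cholangiocyte markers tested, 3 were lower in KO, *Cldn4* (log2 fold change -1.03), *Sox9* (-0.87) and *Spp1* (-2.04). The other, *Krt19*, was higher in KO (log2 fold change 0.82, adjusted p = 0.0479). The macrophage sum ran from 92.0 to 100.8 in KO and from 109.3 to 119.7 in LOXP. In it *Cd68* had 37.5 FPKM in LOXP and 21.1 in KO on average (edgeR adjusted p = 4.21e-04). *Cd5l* had 2.67 in LOXP and 5.25 in KO, which did not pass an adjusted p of 0.05 (0.0853). The median log2 fold change of the 16 macrophage markers was -0.07. The stellate cell sum ran from 5.12 to 5.22 in KO and from 4.48 to 4.62 in LOXP. LOXP replicate 2 stood apart in inflammatory genes, with 75 counts of *Il1b* against 0 in each of the other 5 libraries. The part of these lists in the results below was not tested, and fewer cells of a type cannot be told apart from less RNA per cell in such bulk samples.

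The death genes spanned a wide range of levels. By mean FPKM over the 6 libraries, *Mcl1*, an anti-apoptotic BCL2 relative, was highest with 67.5, followed by the pore-forming effector *Bax* with 48.1, the TNF receptor *Tnfrsf1a* with 35.1, the second effector *Bak1* with 16.8 and the BH3-only gene *Bid* with 14.6. *Mcl1*, *Bax* and *Tnfrsf1a* stood apart from all others in every library. *Bak1* and *Bid* were not separated in LOXP, where *Bak1* had 16.8 ± 0.67 and *Bid* 15.5 ± 1.86 FPKM (mean ± SD, n = 3). A mean above 1 FPKM in either group was seen for 26 of the 34. The 8 below it were *Ripk3*, *Pmaip1*, *Bmf*, *Gsdme*, *Casp4*, *Casp1*, *Casp12* and *Bcl2*. *Bcl2*, the founding member of its family, was lowest with 0.082 FPKM, so among the anti-apoptotic members these hepatocytes held mostly *Mcl1* and *Bcl2l1* RNA. *Ripk3* had 0.676 FPKM beside 14.4 for its substrate *Mlkl*.

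**Figure D1:**
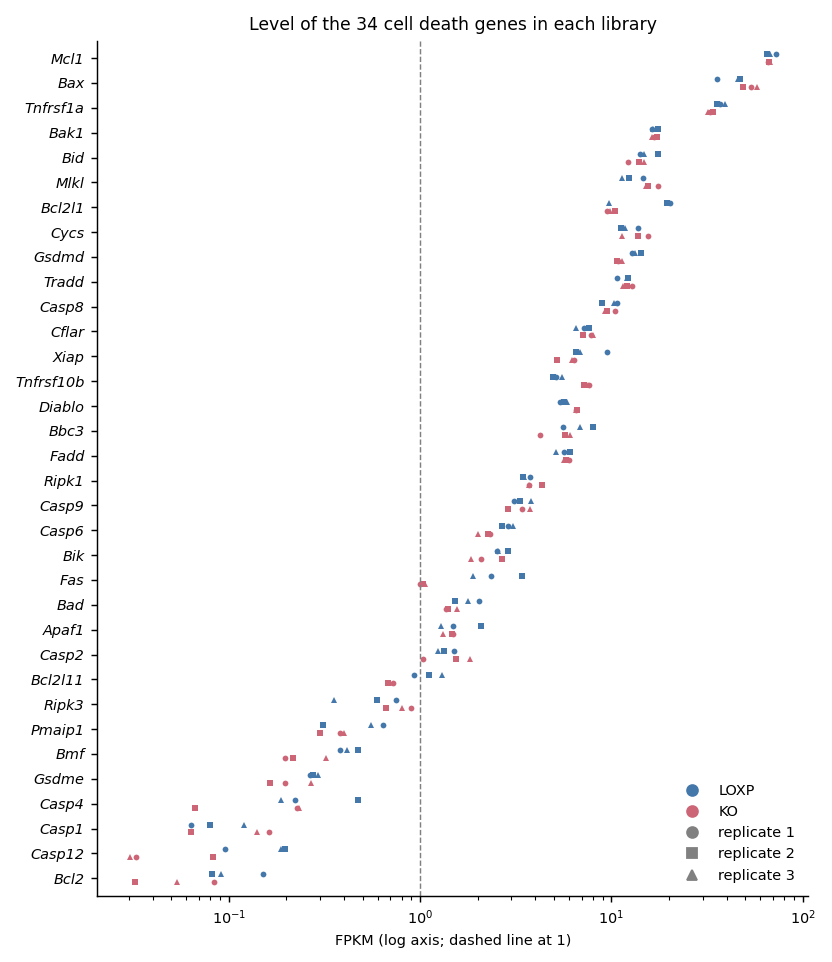
FPKM (horizontal log axis) of each of the 34 cell death genes in the 3 LOXP and 3 KO libraries, 1 point per library, ordered by mean level. *Mcl1*, *Bax* and *Tnfrsf1a* lead, and the inflammatory caspases *Casp1*, *Casp4* and *Casp12* and *Bcl2* lie below 1 FPKM in every library.

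Between the genotypes, 33 of the 34 genes had enough counts to be tested and *Casp12* did not. Of the 33, 8 passed an adjusted p of 0.05 in edgeR, which is 24.2% of them, where 23.1% of all 14151 genes tested passed. The share of the death genes that changed was thus near that of all genes. By direction, 7 were lower in KO (21.2%, against 11.6% of all genes) and 1 was higher (3.03%, against 11.5%). The lower genes were *Fas*, *Tnfrsf1a*, *Gsdmd*, *Casp6*, *Bmf*, *Bcl2l11* and *Bcl2l1*, and the higher gene was *Tnfrsf10b*. The median log2 fold change was -0.21 over the 33 and -0.0021 over all genes tested, and 21 of the 33 lay below 0, against 50.3% of all genes. For 15 of the 33 (45.5%) the normalized values of the groups did not overlap, where 40.7% of all genes tested did not. Out of the 33, KO was the lower group without overlap in 11 and the higher in 4. Out of all genes tested, these shares were 20.3% and 20.4%. *Fas* alone also met the criteria of the study (a log2 change above 1 in size, adjusted p under 0.05, and over 1 FPKM on average in either group), which 1.49% of all genes met as lower and 2.05% in either direction. None of the 34 met them as higher in edgeR, DESeq2 or limma, against 0.558% of all genes.

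**Figure D2:**
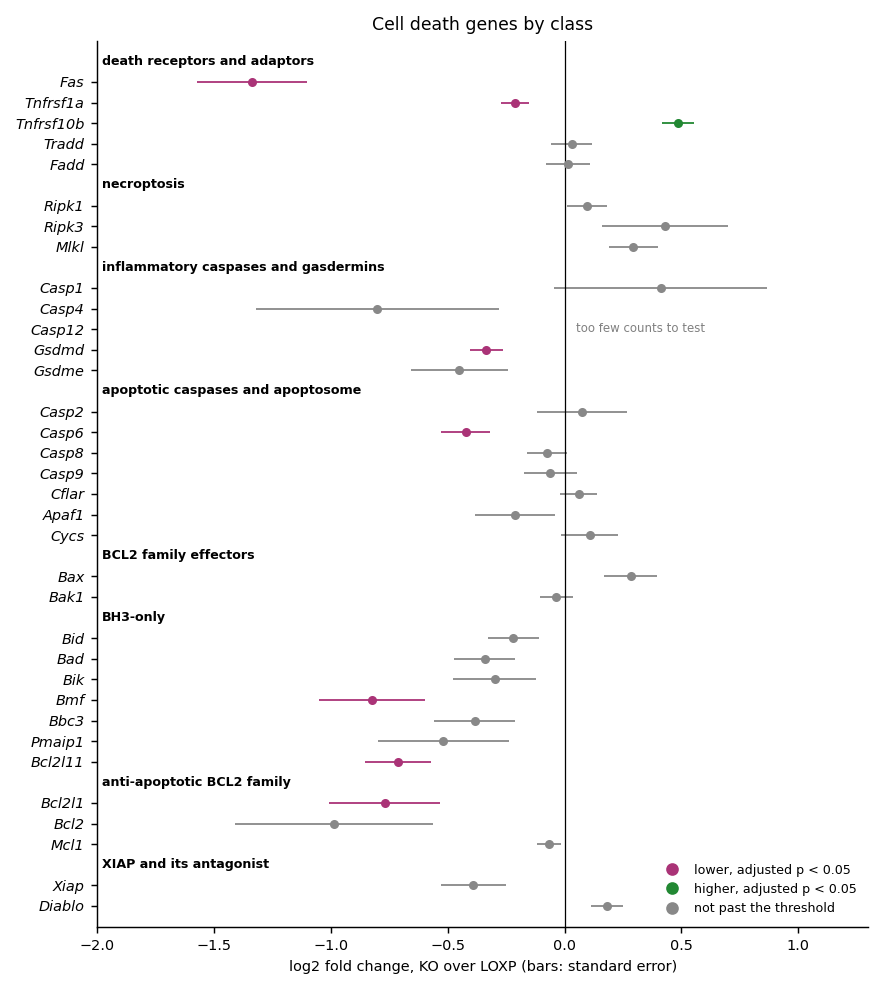
Log2 fold change of KO over LOXP (horizontal axis, points) with its standard error (bars) for the cell death genes, grouped by class and coloured by whether and in which direction the adjusted p passed 0.05. All 7 BH3-only genes lie left of 0, with *Bmf* (-0.83) and *Bcl2l11* (-0.71) past the threshold, and the 3 necroptosis genes lie right of 0 without passing it.

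Among the death receptors, *Fas* and *Tnfrsf1a* were lower and *Tnfrsf10b* higher in KO, while the adaptors differed by little. *Fas* (ENSMUSG00000024778, GRCm39 chromosome 19, 34268066 to 34305172), the receptor for FAS ligand, had 7.005, 10.4 and 5.66 normalized counts (CPM, counts scaled to an equal library size) in LOXP replicates 1, 2 and 3 and 2.93, 3.08 and 3.09 in KO. The KO libraries sat close together below every LOXP library, and LOXP replicate 2 was the highest. The log2 fold change was -1.34 ± 0.235 (SE, edgeR adjusted p = 0.00498), a level in KO 60.4% below that of LOXP. *Tnfrsf1a* (ENSMUSG00000030341, chromosome 6, 125326325 to 125339447), the main receptor for TNF, had 140.2, 138 and 148 CPM in LOXP and 123, 127 and 119 in KO. The groups did not overlap, but the difference was small, a log2 fold change of -0.21 ± 0.0588 (SE, adjusted p = 0.0329). Its adjusted p was 0.0527 and 0.105 without LOXP replicate 2 or 3, and 0.0966, 0.0705 and 0.117 without KO replicate 1, 2 or 3, and 0.0394 without LOXP replicate 1, so the call was kept in 1 of the 6 cases. *Tnfrsf10b* (ENSMUSG00000022074, chromosome 14, 70004921 to 70021860), the mouse receptor for TRAIL, moved the other way. It had 33.1, 32.4 and 35.5 CPM in LOXP and 48.4, 46.1 and 47.1 in KO, a log2 fold change of 0.49 ± 0.0684 (SE, adjusted p = 0.00178), and it passed the threshold without any one library. *Tradd*, which couples the TNF receptor to RIPK1, had a log2 fold change of 0.03 ± 0.0879 (SE, adjusted p = 0.844). *Fadd*, which brings caspase-8 to the receptors, had 0.02 ± 0.0937 (SE, adjusted p = 0.927). The sign of both adaptors changed when single libraries were left out.

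Of the ligands of these receptors, *Fasl*, *Tnfsf10* and *Tnf* had too few counts across the libraries to be tested. *Fasl* had 0 counts in all 6 libraries, and a count of 0 in a library still allows an expected count of up to 3 there. *Tnfsf10*, which encodes TRAIL, had 10, 10 and 12 counts in LOXP and 0, 6 and 3 in KO, and the groups did not overlap. *Tnf* had 0, 73 and 6 counts in LOXP and 6, 9 and 10 in KO, so LOXP replicate 2 stood far above the other 5 libraries.

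The promoters of the receptors with lower RNA are shown because both hold the letters TTCNNNGAA, a core that STAT factors bind, which was searched for with 3 other motifs after the values of the genes were known. RefSeq (GRCm38.p6, another build than that of the table) gave promoter windows for 29 of the 34 genes, 41 windows in all, of which the 250 bases before the start were searched on both strands. TTCNNNGAA reads the same on both strands and was found in 4 of the 41 windows (9.76%), in *Fas*, *Tnfrsf1a*, *Ripk1* and *Casp12*, and in 7.02% of all 32851 windows. A core of interferon response elements (GAAA, any 2 bases, GAAA) was in 0 of the 41 windows and in 2.98% of all windows. A core that NF-κB binds (GGGA, any 2 bases, TTCC) was in 0 of the 41 and in 1.21% of all. No match says only that these letters are not in this window. The windows below run from 5′ to 3′ on the strand of the gene, up to the base before the start, with TTCNNNGAA in capitals. For 31 of the 41 windows the first 30 bases after the start were found in a GENCODE transcript of the gene, and *Fas* was not among them. The match begins 93 bases before the start in *Fas* and 244 bases before it in *Tnfrsf1a*.
*Fas*, chr19:34290409-34290658, + strand: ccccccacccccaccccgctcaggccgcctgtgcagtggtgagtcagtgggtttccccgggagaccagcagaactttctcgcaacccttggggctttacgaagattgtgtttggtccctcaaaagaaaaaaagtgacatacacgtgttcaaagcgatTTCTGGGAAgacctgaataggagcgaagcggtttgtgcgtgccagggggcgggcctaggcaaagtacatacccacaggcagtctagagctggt
*Tnfrsf1a*, chr6:125349473-125349722, + strand: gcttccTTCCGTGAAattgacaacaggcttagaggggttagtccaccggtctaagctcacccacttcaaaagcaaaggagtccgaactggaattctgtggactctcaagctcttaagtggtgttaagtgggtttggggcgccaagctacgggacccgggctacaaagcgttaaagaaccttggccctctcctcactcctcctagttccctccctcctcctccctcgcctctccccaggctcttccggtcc

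Of the 7 BH3-only genes, which set off the mitochondrial arm, 2 passed the test as lower in KO (28.6%, against 11.6% of all genes). All 7 had log2 fold changes below 0, as did 50.3% of all genes tested. They ran from -0.83 to -0.22, with a median of -0.38 (all genes tested, -0.0021). *Bcl2l11* (ENSMUSG00000027381, chromosome 2, 127967958 to 128004467), which encodes BIM, had 12.6, 15.4 and 17.8 CPM in LOXP and 9.69, 9.17 and 9.04 in KO. Each KO library was below each LOXP library, and the KO libraries varied less (SD 0.343 against 2.64, n = 3 each). The log2 fold change was -0.71 ± 0.141 (SE, edgeR adjusted p = 0.00847), and it passed the threshold without any one library. *Bmf* (ENSMUSG00000040093, chromosome 2, 118359238 to 118380168), a sensor of detachment from the matrix, had only 62, 71 and 65 counts in LOXP and 31, 41 and 55 in KO. In CPM these were 3.91, 4.97 and 4.28 against 1.98, 2.21 and 3.21, without overlap, a log2 fold change of -0.83 ± 0.226 (SE, adjusted p = 0.0317). The adjusted p of *Bmf* was 0.0847 and 0.0734 without LOXP replicate 2 or 3 and 0.0966 and 0.111 without KO replicate 1 or 2.

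The other 5 BH3-only genes did not pass the test. *Bid*, which links caspase-8 to the mitochondrion and was the most abundant of the class, had 77.4, 99.1 and 81.4 CPM in LOXP and 66.4, 75.9 and 79.1 in KO (log2 fold change -0.22 ± 0.108 SE, adjusted p = 0.183). The span of *Bid* overlaps that of *Bcl2l13* in the table, and without a stated strand setting the reads of overlapping genes cannot be assigned with certainty. *Bad*, which growth factor signals inactivate, had -0.34 (adjusted p = 0.0936) without overlap between the groups. *Bbc3*, which encodes PUMA, had -0.38 (adjusted p = 0.152). *Pmaip1*, which encodes NOXA, had -0.52 (adjusted p = 0.224) and *Bik* -0.30 (adjusted p = 0.27).

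RefSeq gives *Bcl2l11* 2 start sites, and the window of 1 of them is printed because it holds GTAAACA, the core that forkhead (FOXO) factors bind, which the other window does not. GTAAACA or its reverse complement TGTTTAC was in 4 of the 41 windows of these genes (9.76%), 1 of *Bcl2l11*, 1 of *Bbc3* and 2 overlapping windows of *Casp4*, and in 3.17% of all windows. In the window below, which is 72.0% G and C, the match in capitals begins 227 bases before the start.
*Bcl2l11*, chr2:128125788-128126037, + strand: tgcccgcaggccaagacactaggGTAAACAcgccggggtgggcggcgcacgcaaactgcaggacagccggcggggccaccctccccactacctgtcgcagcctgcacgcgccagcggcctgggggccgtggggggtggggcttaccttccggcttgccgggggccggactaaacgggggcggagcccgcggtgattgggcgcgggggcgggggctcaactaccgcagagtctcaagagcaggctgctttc

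Of the anti-apoptotic BCL2 genes, *Bcl2l1* passed the test as lower, and *Mcl1* and *Bcl2* did not pass. *Bcl2l1* (ENSMUSG00000007659, chromosome 2, 152622588 to 152673648), which encodes BCL-XL, had 243, 238 and 117 CPM in LOXP and 111, 125 and 115 in KO. LOXP replicate 3 lay within the range of the KO libraries, about level with them, so the groups overlapped and the difference came from LOXP replicates 1 and 2. The log2 fold change was -0.77 ± 0.237 (SE, edgeR adjusted p = 0.0478). It was -1.04 without LOXP replicate 3 (adjusted p = 2.84e-04), where the gene also met the criteria of the study. It was -0.61 without LOXP replicate 1 (adjusted p = 0.136) and -0.62 without LOXP replicate 2 (adjusted p = 0.121). The adjusted p was 0.129, 0.102 and 0.124 without KO replicate 1, 2 or 3, and 0.0806 in DESeq2. *Mcl1* had 293, 269.9 and 273 CPM in LOXP and 263, 268 and 268 in KO, a log2 fold change of -0.07 ± 0.0521 (SE, adjusted p = 0.406). *Bcl2* had 24, 12 and 14 counts in LOXP and 13, 6 and 9 in KO. Its log2 fold change was -0.99 with a standard error of 0.423 (edgeR adjusted p = 0.132, unadjusted p = 0.0462). Its values in CPM did not overlap, although LOXP replicate 2 and KO replicate 1 were nearly level at 0.839 and 0.829.

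None of the effectors passed the test in edgeR, DESeq2 or limma, and *Bax* had an unadjusted p under 0.05. *Bax* had 92.2, 124 and 120.0 CPM in LOXP and 138, 126 and 146 in KO (log2 fold change 0.28 ± 0.114 SE, adjusted p = 0.112). All KO libraries were higher than all LOXP libraries, of which replicate 1 was the lowest. *Bak1*, the second effector, had -0.04 ± 0.0698 (SE, adjusted p = 0.762). The spans of *Bax*, *Bak1*, *Casp9* and *Diablo* overlap those of other protein-coding genes. As a ratio of FPKM within a library, *Bax* to *Bcl2l1* was 1.75, 2.41 and 4.73 in LOXP and 5.71, 4.65 and 5.87 in KO. LOXP replicate 3 again lay within the KO range. *Bcl2l11* to *Mcl1* was 0.0128, 0.017 and 0.0195 in LOXP and 0.011, 0.0102 and 0.0101 in KO, without overlap. *Bax* to *Bcl2* was 237, 576 and 506 in LOXP and 646, 1510.1 and 1079.6 in KO, and rests on the few counts of *Bcl2*.

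**Figure D3:**
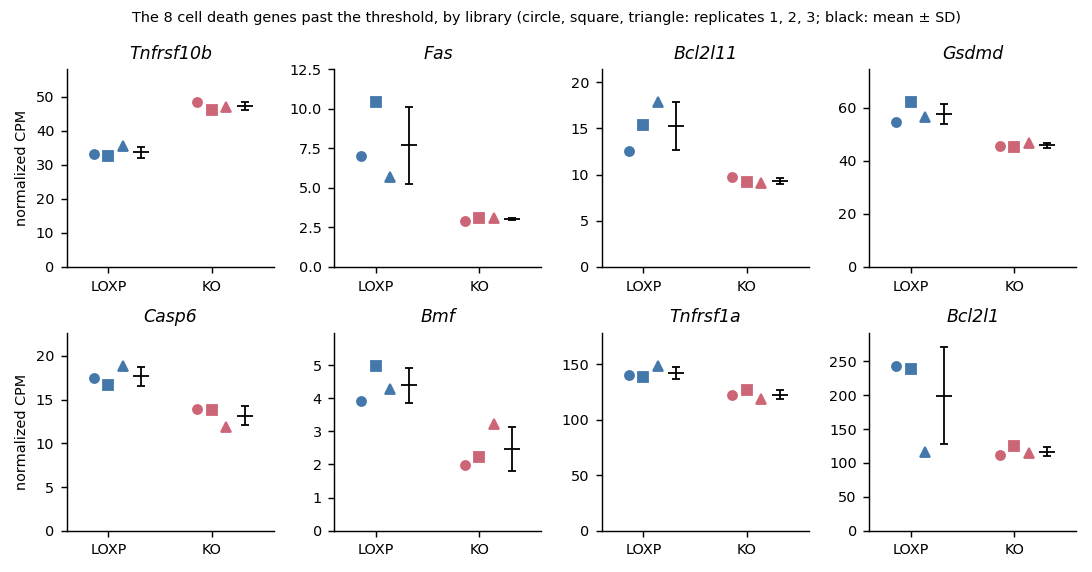
Normalized CPM (vertical axes from 0, 1 panel per gene) of the 8 cell death genes past the threshold in each LOXP and KO library, with the mean and SD of each group (n = 3) in black. The groups do not overlap in 7 panels, and in *Bcl2l1* LOXP replicate 3, at 117, lies among the KO libraries.

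In the caspase cascade, 1 of the 7 genes passed the test (14.3%, against 23.1% of all genes tested). This was *Casp6*, which was lower in KO, and the other 6 genes did not pass. *Casp6* (ENSMUSG00000027997, chromosome 3, 129695074 to 129707752), an executioner caspase, had 17.5, 16.7 and 18.8 CPM in LOXP and 13.9, 13.8 and 11.9 in KO. The groups did not overlap, and the log2 fold change was -0.42 ± 0.104 (SE, edgeR adjusted p = 0.0214). Its adjusted p was 0.0697 without LOXP replicate 3 and 0.0528 and 0.0703 without KO replicate 2 or 3. The initiators *Casp8*, *Casp9* and *Casp2* had log2 fold changes of -0.08, -0.06 and 0.07, with adjusted p from 0.569 to 0.823. *Cflar*, which encodes the caspase-8 regulator c-FLIP and neighbours *Casp8* on chromosome 1, had 130, 142 and 118 CPM in LOXP and 138, 127 and 141 in KO (log2 fold change 0.06, adjusted p = 0.633). The FPKM ratio of *Cflar* to *Casp8* was 0.672, 0.855 and 0.633 in LOXP and 0.749, 0.75 and 0.861 in KO, with overlap. *Apaf1* had -0.21 ± 0.171 (SE, adjusted p = 0.422) and was highest in LOXP replicate 2, and *Cycs*, which encodes cytochrome c, had 0.11 ± 0.123 (SE, adjusted p = 0.581).

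*Xiap*, which inhibits caspases, and *Diablo*, which encodes SMAC and counters XIAP, did not pass the test in edgeR, and both had an unadjusted p under 0.05. *Xiap* had 115.7, 81.7 and 84.1 CPM in LOXP and 76.9, 63.6 and 74.4 in KO (log2 fold change -0.39 ± 0.139 SE, adjusted p = 0.0776). It passed in DESeq2 (adjusted p = 0.019) and without LOXP replicate 2 (0.0499). *Diablo* had 49.6, 53.6 and 54.8 CPM in LOXP and 59.3, 61.1 and 58.8 in KO (log2 fold change 0.18 ± 0.0677 SE, adjusted p = 0.0885). In both genes the groups did not overlap.

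The necroptosis genes had positive log2 fold changes, none past the threshold in edgeR without a replicate block, DESeq2 or limma when all libraries were used. *Mlkl*, the executioner of necroptosis, had 50.5, 43.6 and 39.4 CPM in LOXP and 59.3, 53.4 and 51.0 in KO, without overlap (log2 fold change 0.29 ± 0.103 SE, adjusted p = 0.0752). Its unadjusted p was under 0.05, and it passed without LOXP replicate 1 (0.39, adjusted p = 0.0256). *Ripk3*, its kinase, had 61, 45 and 28 counts in LOXP and 71, 63 and 69 in KO (log2 fold change 0.43 ± 0.27 SE, adjusted p = 0.297). *Ripk1* had 0.10 ± 0.0853 (SE, adjusted p = 0.468), and its span overlaps that of *Serpinb6a*. The FPKM ratio of *Ripk3* to *Mlkl* ran from 0.0313 to 0.051 in LOXP and from 0.0425 to 0.0527 in KO.

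Of the pyroptosis genes, *Gsdmd* was lower in KO, and the inflammatory caspases that cleave its product were barely detected. *Gsdmd* (ENSMUSG00000022575, chromosome 15, 75734176 to 75739257), which encodes gasdermin D, had 54.6, 62.0 and 56.4 CPM in LOXP and 45.4, 45.1 and 46.7 in KO. The groups did not overlap, and the log2 fold change was -0.33 ± 0.0721 (SE, edgeR adjusted p = 0.0123), 20.7% lower in KO. It passed the threshold without any one library, with an adjusted p of up to 0.049. *Gsdme*, a second gasdermin gene, had 67, 64 and 71 counts in LOXP and 48, 48 and 71 in KO (log2 fold change -0.45 ± 0.207 SE, adjusted p = 0.157), and its span overlaps that of *Pals2*. *Casp1*, *Casp4* and *Casp12* lie next to each other on chromosome 9, between 5298508 and 5373032. *Casp1* had 6, 7 and 11 counts in LOXP and 15, 7 and 14 in KO (log2 fold change 0.41 ± 0.456 SE, adjusted p = 0.569). *Casp4*, the mouse caspase-11 gene, had 17, 34 and 14 counts in LOXP and 17, 6 and 19 in KO (log2 fold change -0.80 ± 0.52 SE, adjusted p = 0.314). *Casp12* had 9, 17 and 17 counts in LOXP and 3, 9 and 3 in KO, too few to be tested, although its CPM were lower in KO without overlap. The 3 neighbours thus showed no shared direction that the counts could resolve. Macrophages express inflammatory caspases, and of their 16 markers 2 were lower in KO, *Cd68* (log2 fold change -0.87, adjusted p = 4.21e-04) and *Mpeg1* (-0.69, adjusted p = 0.00401), none was higher and none was at 0 in every library. The median log2 fold change of the 16 was -0.07, and 11.6% of all genes tested were lower. The part of macrophage RNA in these values was not tested.

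**Figure D4:**
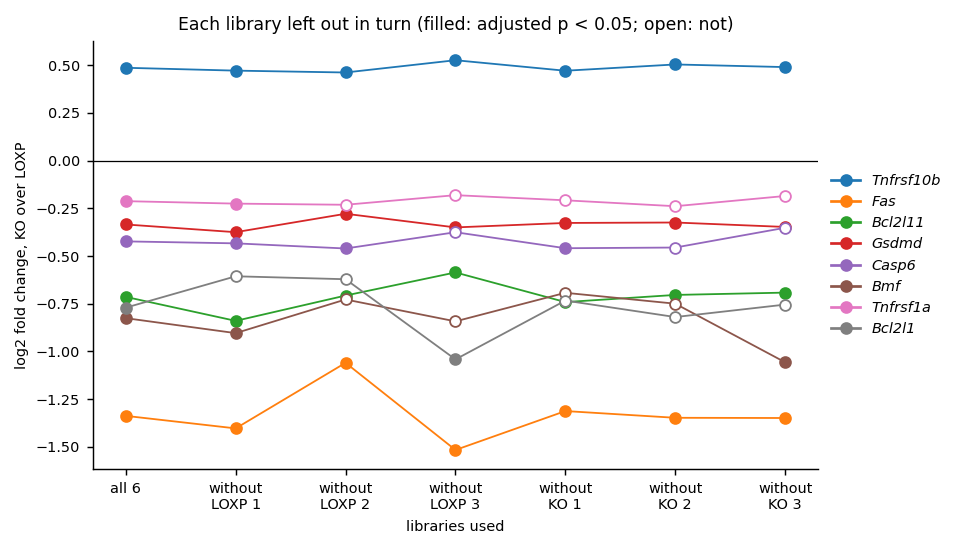
Log2 fold change of KO over LOXP (vertical axis) of the 8 genes past the threshold with all 6 libraries and with each library left out in turn (horizontal axis), with lines joining the values of a gene and filled points where the adjusted p was under 0.05. *Tnfrsf10b*, *Fas*, *Bcl2l11* and *Gsdmd* stay filled throughout, and *Bcl2l1* is filled only with all libraries and without LOXP replicate 3.

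A wider list of 77 other genes of the same pathways had 76 genes in the table, of which 57 were tested. Of these, 13 were lower (22.8%, against 11.6% of all genes) and 5 higher (8.77%, against 11.5%) in KO. Together this is 31.6% against 23.1% of all genes, and the median log2 fold change was -0.02. The TNF receptor complex was listed in a class with *Zbp1*, *Tlr3*, *Ticam1* and *Pgam5*, which are not parts of it. Of the 16 genes, 4 were lower (25%, against 11.6% of all genes) and 3 higher (18.8%, against 11.5%). *Birc2* (-1.31), which encodes the ubiquitin ligase cIAP1, *Traf2* (-0.65), which recruits it, and *Tnfaip3* (-1.04), which encodes the brake A20, were lower, as was *Zbp1* (-1.17), a nucleic acid sensor that engages RIPK3. *Birc2* had 38.7, 71.9 and 35.2 CPM in LOXP and 21.1, 19.9 and 17.8 in KO, with LOXP replicate 2 far above the rest. *Traf2* had 36.6, 37.6 and 34.2 CPM in LOXP and 25.4, 21.2 and 22.6 in KO, with adjusted p = 0.00169. The higher genes were *Ikbkg* (0.48), which encodes NEMO, *Ticam1* (0.58), which encodes the adaptor TRIF, and *Pgam5* (0.53), a mitochondrial phosphatase. The span of *Ikbkg* overlaps that of *G6pdx*, which had 8991 counts, so its reads cannot be assigned with certainty. *Tnfrsf21* (0.82), which encodes death receptor DR6, rose from 9.15, 9.65 and 9.94 CPM in LOXP to 15.1, 18.1 and 17.4 in KO (adjusted p = 0.00142). Together with *Tnfrsf10b*, it is the second death receptor whose RNA was higher in KO.

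The other BCL2 relatives were listed in a class with *Bnip2*, *Vdac1* and *Vdac2*, which are not relatives. Of its 10 tested genes, 4 were lower (40%, against 11.6% of all genes) and 0 higher (against 11.5%) in edgeR without a replicate block. DESeq2 gave the same numbers. The mitochondrial channel genes *Vdac1* (0.14) and *Vdac2* (0.17) did not pass in edgeR, with adjusted p of 0.0640 and 0.0546. Both passed in limma on log2(FPKM + 1) with adjusted p of 0.0233 and 0.0323, and *Vdac2* also passed in edgeR without LOXP replicate 1 (0.0354). The number of lower genes was 2 without LOXP replicate 2 and without KO replicate 1 or 3. *Bnip3* (-1.08) and *Bnip3l* (-0.31), whose products are receptors for mitophagy, *Bcl2l14* (-0.62) and *Bok* (-0.68) were lower, and *Bok*, *Vdac1* and *Vdac2* are named after their values were seen. The adjusted p of *Bok* was 0.0546 and 0.0690 without LOXP replicate 2 or 3 and 0.0526 and 0.0624 without KO replicate 1 or 3. *Bnip3* had 71.8, 70.1 and 49.0 CPM in LOXP and 30.7, 30.5 and 28.8 in KO (edgeR adjusted p = 0.00117). *Bnip3l* lost its call without LOXP replicate 2 (adjusted p = 0.062) and without KO replicate 1, 2 or 3 (0.0745, 0.0639 and 0.0531). *Ninj1* (-0.73), which ruptures the plasma membrane late in lytic death, had 92.8, 68.5 and 108.5 CPM in LOXP and 48.1, 58.8 and 55.2 in KO (adjusted p = 0.0118). *Xaf1* (-1.12), an interferon-inducible antagonist of XIAP, had 24.5, 17.9 and 16.8 CPM in LOXP and 8.92, 8.63 and 9.80 in KO (adjusted p = 0.00176). *Parp1* (0.36), a DNA repair enzyme that executioner caspases cleave, was higher (adjusted p = 0.0088).

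The p53 axis was listed in a class with the stress response genes *Ddit3* and *Trib3*. *Trp53* itself had a log2 fold change of 0.14 (edgeR adjusted p = 0.254). Of the 9 genes, 3 were lower in edgeR (33.3%, against 11.6% of all genes). The number was 1 in DESeq2, 2 in limma, and 1 without LOXP replicate 1 and without KO replicate 1 or 2. *Trp53inp1*, a p53-induced gene, had 446, 470.0 and 379.97 CPM in LOXP and 236, 213 and 218 in KO (log2 fold change -0.96 ± 0.0834 SE, edgeR adjusted p = 2.01e-04), the smallest adjusted p of the list. *Cdkn1a* and *Aen*, named after their values were seen, were lower by -1.11 and -1.27 (adjusted p = 0.0335 and 0.0386). Their groups split unevenly. *Cdkn1a*, which encodes the cell cycle inhibitor p21, had 309, 295 and 229.8 CPM in LOXP and 86.1, 91.9 and 208 in KO. *Aen*, a nuclease gene, had 118, 39.2 and 117 CPM in LOXP and 28.9, 41.6 and 42.9 in KO, so LOXP replicate 2 was at the KO level. Without single libraries the adjusted p of *Cdkn1a* was above 0.05 in every case except without KO replicate 3 (7.37e-04), and that of *Aen* in every case except without LOXP replicate 2 (4.85e-04). The highest were 0.107 for *Cdkn1a*, without KO replicate 2, and 0.119 for *Aen*, without KO replicate 1.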

How the data were processed

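Gene expression was measured by RNA sequencing of 3 LOXP and 3 KO libraries, grouped by the sample titles. The authors sequenced paired-end reads and mapped them with HISAT2. The submitters' processing notes also name fastp, StringTie, edgeR and the build GRCm39, and the counting tool, annotation release and strand setting are not given in the sources used here. The authors deposited raw read counts per gene, and FPKM values scaled to gene length and library total, for 57180 genes, all 12 columns of which were used. In R 4.3.3, edgeR 4.0.16 was run on the counts, keeping 14151 genes by filterByExpr (minimum count 10), with TMM normalization, the two-sided quasi-likelihood test, and p adjusted by Benjamini-Hochberg over every tested gene. Genes were called at an adjusted p under 0.05. The standard error is the log2 fold change divided by the root of the test statistic. CPM are counts scaled to the TMM-normalized library size. For single genes, exact two-sided permutation tests of 3 libraries against 3 on log2(CPM + 0.5) cannot give a p under 0.1, which each of the 8 called genes except *Bcl2l1* (0.2) reached. The fits were tested on simulated data with known changes. Alternatives were DESeq2 1.42.0, limma 3.58.1 on log2(FPKM + 1) and log2(FPKM + 0.1), other normalizations and filters, the likelihood ratio test, a replicate block and each library left out. Replicates differed by more than counting noise (chi-square over degrees of freedom, 7.60 to 16.1). Same-numbered libraries had correlations of deviations of 0.132, 0.0729 and 0.0256, so the numbers were not taken as pairs. The named genes are all 34, with values in every library for each called or untested gene, and at most the 15 genes with the smallest adjusted p of the wider list. Other genes of that list were named after their values were seen. The genes, lists and motifs were chosen with earlier results of these data known. *Ddit3* of the wider list has 2 lines in the table, of which the tested one was used. Some genes of the wider list are not reported here. Figures were drawn with matplotlib 3.10.9.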

Additional observations from a re-analysis of the deposited data

How the results depend on the processing

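Each of 15 alternatives was run. The number of death genes called lower, 7 with all settings as reported, was 4 when every gene with at least 1 count was tested, 8 with the replicate number as a block, and 4 to 7 with single libraries left out. The number called higher, 1 as reported, was 2 with the replicate block and 1 to 2 with single libraries left out. The block added *Mlkl*, *Xiap* and *Bbc3* and lost *Bcl2l1* (adjusted p = 0.0523), and samples of the same number share only that number. The number meeting the criteria of the study as lower, 1 as reported, was 0 with limma on log2(FPKM + 1), where the pseudocount shrinks the change of *Fas* to -0.78, and 1 to 2 with single libraries left out. Over the 33 tested genes and all alternatives, 448 of 492 values kept their direction and their side of the threshold, 26 lost and 6 gained the threshold, and 12 changed sign. Direction did not hold for genes near 0. With single libraries left out the log2 fold change ran from -0.0389 to 0.0788 for *Tradd*, -0.0482 to 0.0879 for *Fadd*, -0.10 to 0.27 for *Casp2*, -0.14 to 0.0283 for *Casp9*, -0.0036 to 0.13 for *Cflar*, -0.36 to 0.0198 for *Apaf1* and -0.0702 to 0.0106 for *Bak1*, and *Bak1* had 2.24e-04 and 2.45e-04 with limma on log2(FPKM + 1) and log2(FPKM + 0.1). The counts over the whole wider list stayed within 1.5 times under every alternative. Within it, the lower genes ranged from 1 to 3 in the class of the p53 axis (3 as reported). In the class of the other BCL2 relatives with *Bnip2*, *Vdac1* and *Vdac2*, 2 to 4 genes were lower (4 as reported) and 0 to 2 higher (0 as reported). Of the caspases and their platforms, 1 to 2 were lower and 1 to 2 higher (1 each as reported). Depth limits *Casp1*, *Casp4*, *Casp12* and *Bcl2*, which had at most 34 counts in a library. Where a call was lost, the cause was not tested.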

Other observations

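Genes of the inflammasome, the platform that activates caspase-1, were chosen for mention after their values were seen, because over 50% of their counts lay in 1 library. *Il1b*, a cytokine that caspase-1 matures, had 0, 75 and 0 counts in LOXP replicates 1, 2 and 3 and 0 in each KO library. *Nlrp3*, a sensor of the inflammasome, had 4, 125 and 3 counts in LOXP and 1, 5 and 6 in KO. *Mefv*, which encodes pyrin, had 0, 17 and 4 counts in LOXP and 1, 3 and 0 in KO. *Gbp5*, an interferon-inducible GTPase that promotes inflammasome assembly, had 1, 21 and 6 counts in LOXP and 6, 1 and 4 in KO. All 4 had too few counts across the libraries to be tested. The adaptor *Pycard* had 3 to 6 counts in each of the 6 libraries and was not higher in LOXP replicate 2, which had 3. *Il18*, the other cytokine that caspase-1 matures, had 3.28, 2.31 and 2.04 CPM in LOXP and 2.36, 2.32 and 2.86 in KO (log2 fold change -0.02, edgeR adjusted p = 0.963). Of the 16 macrophage and Kupffer cell markers, LOXP replicate 2 had the lowest CPM of the 6 libraries in 7 and the highest in 4. *Clec4f* had 30 counts there against 69 to 90 in the other 5 libraries, *Cd5l* 33 against 98 to 215, *Vsig4* 5 against 22 to 33 and *C1qa* 32 against 59 to 122. *Ptprc* had 40 against 12 to 22.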
